A study of Mus musculus with 5 samples.

Results

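The V genes of the antibody kappa light chain were followed in B-lineage cells from mice given anti-CTLA-4. Members were all V genes assigned to a kappa contig (an assembled receptor transcript), with 1 contig kept per cell, the one with most unique molecular identifiers (UMIs, counted molecules). Clonotypes of 10 or more cells were excluded. The members were 76 V genes, of 227 V genes found over all receptor chains of the series, in 580 of the 647 cells with a kappa contig. Those 580 cells formed 480 clonotypes, the deposited groups of cells called as sharing a receptor. Cells of 1 clonotype can differ in the chains read. Of these, 406 had 1 cell and the largest had 5.

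The anti-CTLA-4 mice were BALB/c, 6 weeks old, with CT26 tumour cells (a BALB/c colon carcinoma line) placed under the skin. They were injected into the peritoneum with 100 µg of 9H10, a hamster antibody to mouse CTLA-4, on days 5, 8 and 11, and killed on day 13. Control mice of the same strain, age and tumour received PBS on the same days. The series holds 1 gene expression and 1 T cell receptor library per treatment and 1 B cell receptor library, from anti-CTLA-4 mice. The labels call the material only tissue, a tumour dissociation kit was used, and the number of mice per library is not given in the sources used here.

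A kappa chain is made when 1 V gene is joined to 1 J gene in a developing B cell, without the D segment that heavy chains carry. The cell can replace a first joint by recombining an upstream V gene to a downstream J gene, which is known as receptor editing. After activation a B cell can switch its heavy chain from IgM and IgD to IgG and can become an antibody-secreting plasma cell, while its kappa gene stays the same apart from somatic mutation.

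Kappa joints recurred between clonotypes with different heavy chains. The CDR3 is the stretch of the chain formed at the joint, and its bases are printed from the conserved cysteine codon to the conserved phenylalanine codon. Capitals mark the bases after the end of the match to the germline V gene in GRCm38. The first 3 sequences were the joints found in most clonotypes, the fourth is 1 of 3 joints found in 6, and the fifth was found in 5 switched and 0 IGHM or IGHD clonotypes.
IGKV10-96 with IGKJ1, 10 clonotypes: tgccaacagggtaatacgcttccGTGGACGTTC
IGKV10-96 with IGKJ2, 10 clonotypes: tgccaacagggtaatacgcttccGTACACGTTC
IGKV1-117 with IGKJ1, 9 clonotypes: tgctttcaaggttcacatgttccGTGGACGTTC
IGKV3-4 with IGKJ1, 6 clonotypes: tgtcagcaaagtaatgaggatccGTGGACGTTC
IGKV13-85 with IGKJ2, 5 clonotypes: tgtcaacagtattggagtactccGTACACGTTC

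In each of these 5 joints the first 23 bases matched the V gene, the last 10 matched the J gene, and no base was left over. Over the 10 IGKV10-96 with IGKJ1 clonotypes, 9 different heavy CDR3 sequences from 8 heavy chain V genes were read. A clonotype counted for a joint can lack a heavy chain. The 5 clonotypes of the IGKV13-85 with IGKJ2 joint carried 5 different heavy chains, and all 5 heavy CDR3s were 30 bases long. They are printed in lower case throughout, because heavy chains were not matched to germline V genes.
IGHV1-26 with IGHJ3, IGHG1, 4 cells: tgtgcaagagattactcctttgcttactgg
IGHV1-26 with IGHJ2, IGHG1, 1 cell: tgtgcaagagggtactacagagactactgg
IGHV1-4 with IGHJ2, IGHG1, 1 cell: tgtgcaagacaggtagtagctgactactgg
IGHV1-4 with IGHJ2, IGHG1, 1 cell: tgtgcaagaccgtactactttgactactgg
IGHV1-4 with IGHJ2, IGHG2C, 1 cell: tgtgcaagagggattacgacggactactgg

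A second set of switched clonotypes paired IGKV3 genes with IGHV9-3. The kappa CDR3 of its 5 IGKV3-10 clonotypes shared the V-derived bases and differed after them, and 2 of the 5 had an identical joint. In the clonotype of the third sequence below, 3 of 4 cells also held an IGKV1-135 contig with 43.0% to 49.8% of their kappa UMIs. Capitals mark the bases after the V match, as above.
IGKV3-10 with IGKJ1, in 2 clonotypes with IGHV9-3: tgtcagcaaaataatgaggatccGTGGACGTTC
IGKV3-10 with IGKJ1, in 1 clonotype with IGHV9-3: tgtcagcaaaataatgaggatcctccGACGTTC
IGKV3-10 with IGKJ2, in 1 clonotype with IGHV9-3: tgtcagcaaaataatgaggatccCACGTTC
IGKV3-10 with IGKJ2, in 1 clonotype with IGHV9-3: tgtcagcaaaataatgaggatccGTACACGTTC

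The label of the cells was checked first. All 580 member cells were in the anti-CTLA-4 expression library, and 559 of them had at least 2 UMIs over the B cell genes Cd79a, Cd79b and Ms4a1 or at least 20 UMIs of Jchain, the joining chain gene of secreted antibody. The other 21 did not, and 11 of these were among the 101 switched cells, 3 among the 272 IGHM or IGHD cells and 7 among the 207 cells with no class read. A T cell receptor beta contig was found in 14 cells (2.41%, exact 95% interval 1.33 to 4.02). The 67 excluded kappa cells were 1 clonotype of 68 cells, whose kappa chain was IGKV4-68 with IGKJ4 and whose kappa UMIs ran from 1 to 15 with a median of 6. None of those 67 cells had a UMI of Cd79a, Cd79b or Ms4a1, while 74.6% had Cd3e, a T cell gene. Intervals here are exact (Clopper-Pearson for shares) and cover counting error only: 1 library per group gives no replicate error, so no p-value is given, and clonotypes of different animals cannot be told apart.

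Every one of the 76 V genes was annotated on chromosome 6 of GRCm38, where the V genes span chr6:67555497-70704177, the J genes chr6:70722562-70723927 and the constant gene IGKC chr6:70726435-70726966. Of 100 V genes annotated there as functional, 75 were the main V gene of a clonotype and 25 were not. A further gene, IGKV11-125, was the kept V gene only in a cell whose clonotype mainly used another V gene. It was also read as the second contig of a cell whose kept contig was IGKV3-2. GRCm38 is a C57BL/6 genome and the mice were BALB/c, so a V name gives the nearest reference gene.

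IGKV4 was the most used family, with 78 of 480 clonotypes (16.25%, 13.1 to 19.9). IGKV3 and IGKV6 followed with 71 clonotypes each (14.8%, 11.7 to 18.3), so the intervals of these 3 families overlapped. IGKV1 had 50 clonotypes (10.4%, 7.83 to 13.5). IGKV12 had 35, IGKV10 33, IGKV8 30, IGKV13 22, IGKV14 19, IGKV17 17, IGKV5 16, IGKV2 12, IGKV9 11, IGKV19 9, IGKV16 4 and IGKV15 2 clonotypes. The families differ in size: IGKV4 used 19 of its 26 annotated genes and IGKV3 all 9 of its 9, while the 33 IGKV10 clonotypes came from 2 genes.

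Single genes were used unevenly. IGKV10-96 (chr6:68631963-68632442, minus strand) was first with 27 clonotypes (5.63%, 3.74 to 8.08), and it had 8 distinct CDR3 sequences among them. When each distinct kappa joint was counted once it had 2.46% and was no longer first, behind IGKV6-32 with 3.69%. IGKV1-117 (chr6:68121046-68121827, plus strand) and IGKV3-4 (chr6:70671788-70672377, plus strand) had 21 clonotypes each (4.38%, 2.73 to 6.61). IGKV6-32 had 19, IGKV1-110 and IGKV13-85 (chr6:68930269-68930734, minus strand) 15 each, and IGKV6-23 had 14. IGKV3-2, IGKV6-15 and IGKV6-17 had 13 each, IGKV3-7 had 12 and IGKV14-111 had 11. Those 12 genes held 194 clonotypes (40.4%), while the median gene had 4 clonotypes and 10 genes had 1. Neighbours in this order did not differ beyond their intervals.

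**Figure D1:**
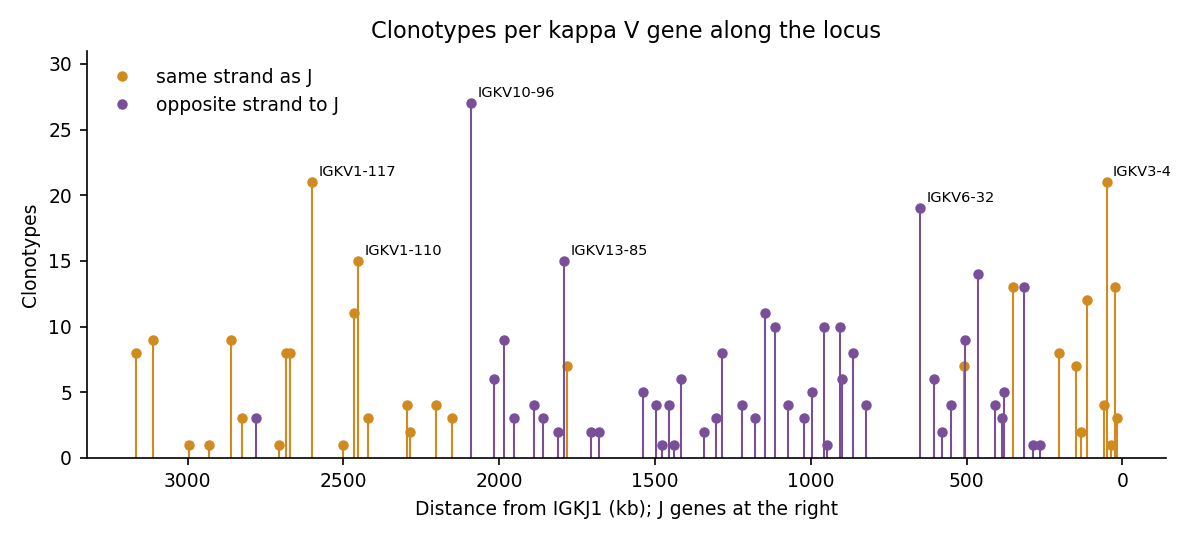
Clonotypes per kappa V gene (vertical axis, linear) against the distance of the gene from IGKJ1 in kb (horizontal axis, the J genes at the right), coloured by strand relative to the J genes. The 27 clonotypes of IGKV10-96 form the tallest line, and used genes stand along the whole locus.

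Use was spread over the locus, as the plot of clonotypes by distance shows. With the annotated V genes cut into 3 groups by rank of position, 172 clonotypes (35.8%) used the J-proximal group, 144 (30.0%) the middle one and 164 (34.2%) the J-distal one. V genes on the opposite strand to the J genes, which must recombine by inversion, made up 62 of the 100 annotated genes and were used in 270 clonotypes (56.3%, 51.7 to 60.7).

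IGKJ2 was used in 161 clonotypes (33.5%, 29.3 to 38.0), IGKJ1 in 159 (33.1%, 28.9 to 37.5), IGKJ5 in 100 (20.8%) and IGKJ4 in 60 (12.5%). IGKJ3, a J gene known to be nonfunctional in mice, was found in 0 of 480 clonotypes, which allows a share of up to 0.625% at 3 counts (exact upper bound 0.766%). J use differed by V family. IGKV1 joined IGKJ1 in 28 of 50 clonotypes (56.0%, 41.3 to 70.0) and IGKV10 in 17 of 33 (51.5%, 33.5 to 69.2), whereas IGKV17 joined it in 0 of 17 (upper bound 19.5%). IGKJ5 was the J gene of 8 of 16 IGKV5 clonotypes (50%, 24.7 to 75.4) and of 9 of 22 IGKV13 clonotypes (40.9%, 20.7 to 63.7). Within the IGKV6 family, IGKV6-17 joined IGKJ1 in 8 and IGKJ2 in 1 of its 13 clonotypes, and IGKV6-15 joined IGKJ1 in 1 and IGKJ2 in 7 of 13.

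**Figure D2:**
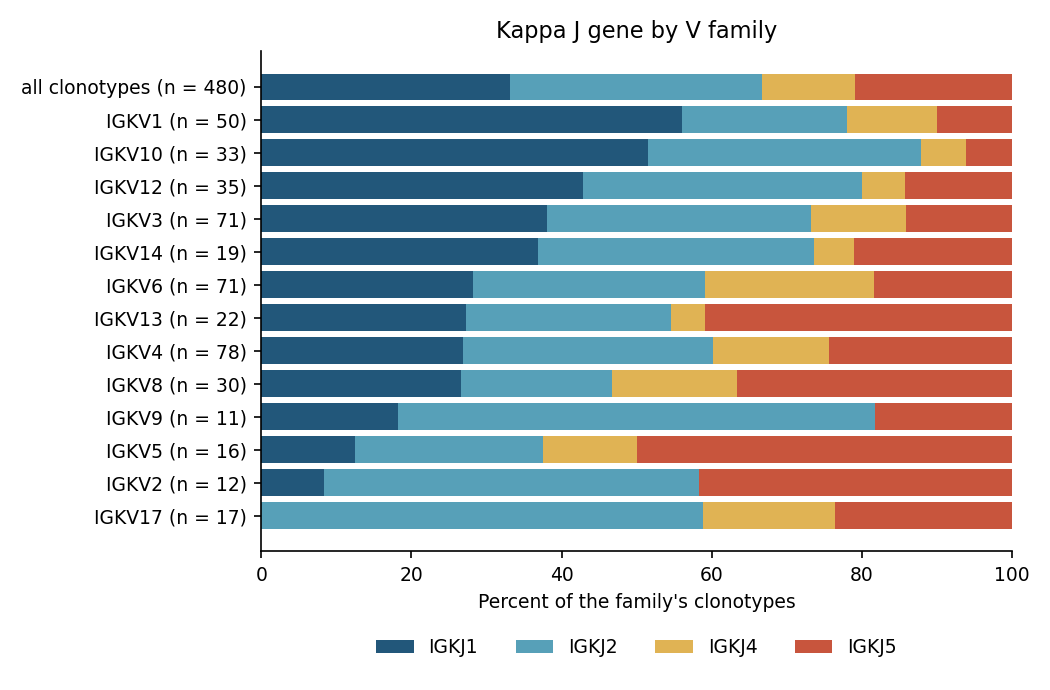
Share of each kappa J gene (horizontal axis, percent of the family's clonotypes, stacked to 100) in all clonotypes and in each V family with at least 10 clonotypes, ordered by IGKJ1. IGKJ1 takes 56.0% of IGKV1 and none of the 17 IGKV17 clonotypes.

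By position, IGKJ4 was used in 17.4% of J-proximal and 9.15% of J-distal clonotypes, an odds ratio of 2.09 (1.04 to 4.38). That interval included 1 when each distinct kappa joint was counted once (1.34, 0.600 to 3.05) and when cells were counted (1.84, 0.954 to 3.65). The intervals for IGKJ1 (0.754, 0.469 to 1.21), IGKJ2 (0.793, 0.490 to 1.28) and IGKJ5 (1.25, 0.690 to 2.28) all included 1.

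Kappa CDR3s hardly varied in length. Between the anchor residues, 415 of 480 clonotypes (86.5%, 83.1 to 89.4) had 9 residues, and 410 of those 415 (98.8%) had proline at position 7, counted from 1 after the cysteine. The length ran from 5 to 11 residues with an SD of 0.456 over clonotypes, against 4 to 19 with a median of 12 and an SD of 2.71 for the heavy chains of the same cells. In 454 clonotypes (94.6%, 92.2 to 96.4) the matches to germline V and J left no base over. Switched clonotypes reached this in 73 of 78 (93.6%) and IGHM or IGHD clonotypes in 259 of 269 (96.3%), an odds ratio of 0.565 (0.169 to 2.17).

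The 480 clonotypes held 325 distinct kappa joints, and 68 of these occurred in at least 2 clonotypes. Of the 361 clonotypes with a heavy chain, 191 (52.9%) had a kappa joint that another clonotype also had, while 2 (0.554%) had a heavy CDR3 that another had. Clonotypes without a heavy chain are grouped by their kappa chain alone, so different B cells can fall into 1 of the 119 such groups. Such a group can also hold cells of a clonotype counted elsewhere with its heavy chain. The clonotypes per joint and the 68 joints include these groups. No 2 clonotypes with a heavy chain met a rule for 1 shared lineage. It asked for the same V and J genes of both chains, equal heavy CDR3 length and heavy CDR3 bases at least 85% alike. The rule was applied to the deposited clonotypes, and how far their grouping had already joined related cells was not examined.

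Clonotypes were then split by the constant gene of the heavy chain. There were 78 switched clonotypes, 65 of them mainly IGHG1, and 269 IGHM or IGHD clonotypes. By their own heavy chain, 101 cells were switched and 272 were IGHM or IGHD, and 1 clonotype with cells of both classes was counted as switched. For 133 clonotypes no class was read, 119 of them for want of a heavy chain. IgA and IgE were read in 0 cells. IGHG2C is the C57BL/6 form of a gene that BALB/c mice carry as IgG2a, so this name too follows the reference.

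Class moved with secretion. Kappa UMIs per cell had a median of 3974 in switched cells (3 to 18561) and 18 in IGHM or IGHD cells (2 to 7410). At least 20 Jchain UMIs were found in 80 of 101 switched cells (79.2%) and in 3 of 272 IGHM or IGHD cells (1.10%). Ighd, the gene of surface IgD, had a UMI in 2.97% of switched cells and 70.6% of IGHM or IGHD cells. Mef2b, a transcription factor gene of germinal centre B cells, had one in 30.7% and 2.21%. Both genes were at 0 in the 67 cells of the excluded clonotype, at a median of 3237 expression UMIs. Median expression UMIs were 23345 per switched cell and 3052 per IGHM or IGHD cell, so such shares are not at equal depth. The part of secreting state in the V gene differences that follow cannot be told apart from that of class.

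**Figure D3:**
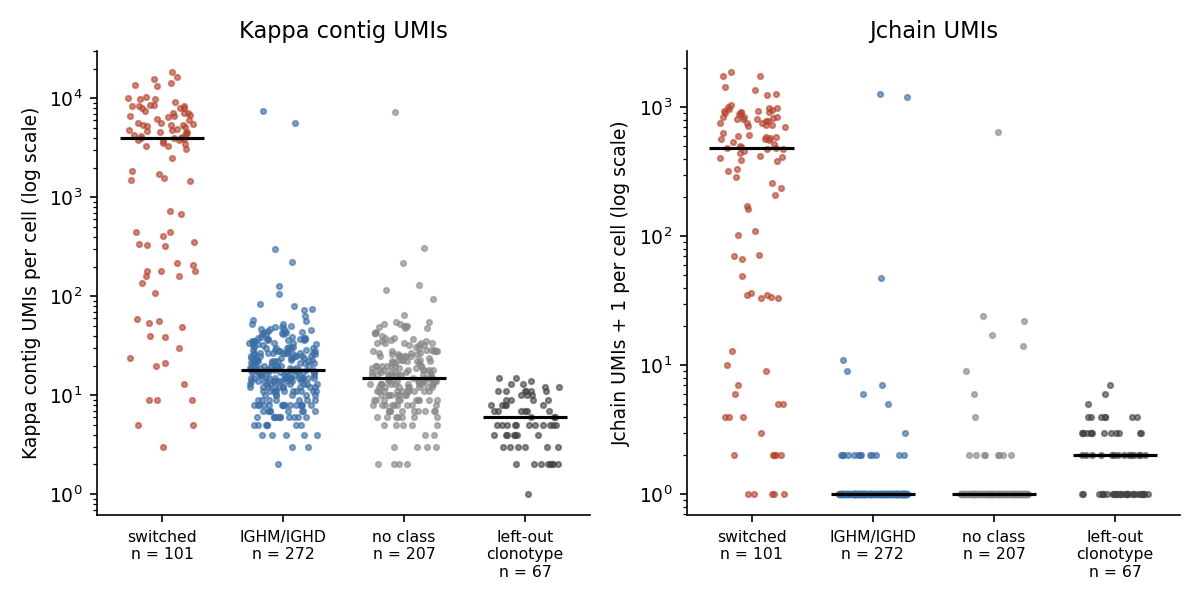
UMIs of the kappa contig (left) and Jchain UMIs plus 1 in the expression library (right), per cell on log axes, in switched cells, IGHM or IGHD cells, cells with no class read and the excluded clonotype; points are cells and bars medians. Switched cells have a median of 3974 kappa UMIs, against 18 in IGHM or IGHD cells.

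IGKV3 and IGKV13 took larger shares of switched clonotypes. IGKV3 was the kappa family of 23 of 78 switched clonotypes (29.5%, 19.7 to 40.9) and of 34 of 269 IGHM or IGHD clonotypes (12.6%, 8.91 to 17.2), an odds ratio of 2.88 (1.49 to 5.50). IGKV13 was used by 10 switched clonotypes (12.8%, 6.32 to 22.3) and 9 IGHM or IGHD clonotypes (3.35%, 1.54 to 6.26), an odds ratio of 4.23 (1.48 to 12.3). The intervals of the other 9 of 11 families compared included 1. IGKV6 had 8.97% of switched and 16.4% of IGHM or IGHD clonotypes (0.505, 0.184 to 1.20), and IGKV12 had an odds ratio of 0.296 (0.0330 to 1.25). The odds ratio of IGKV1 was 0.547 and that of IGKV4 1.29.

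Without cells of at least 20 Jchain UMIs, 18 switched clonotypes remained. The odds ratio was then 2.01 (0.455 to 6.93) for IGKV3 and 5.64 (0.892 to 26.0) for IGKV13, so both intervals included 1. For IGKV6 the odds ratio was 1.01 (0.180 to 3.79). Counting each distinct kappa joint once, IGKV3 had 3.43 (1.59 to 7.47) and IGKV13 had 3.03 (0.630 to 15.8).

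**Figure D4:**
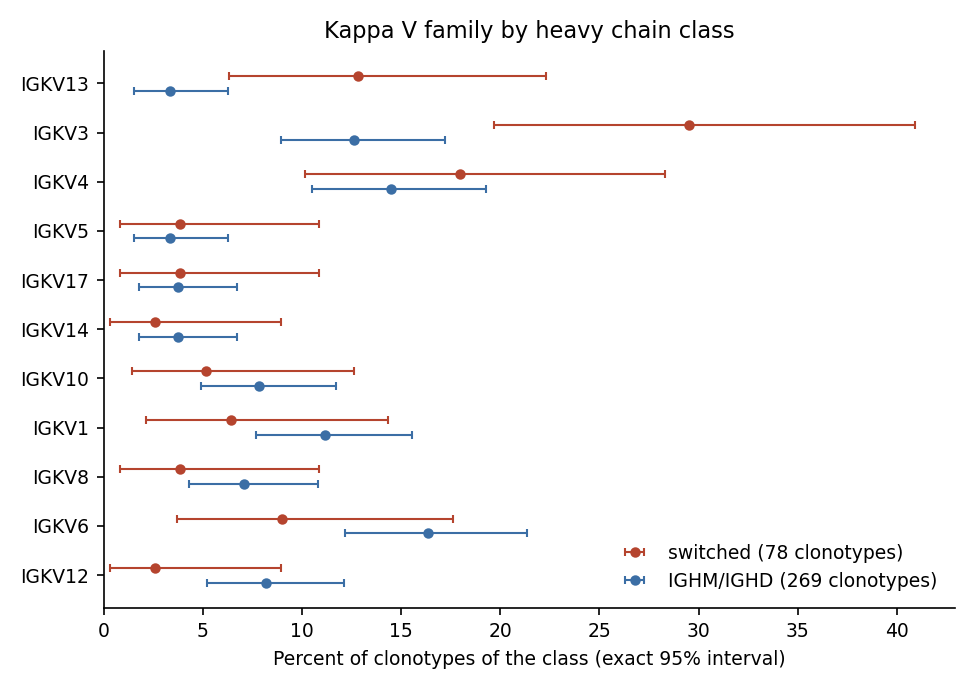
Share of clonotypes in each kappa V family (horizontal axis, percent of the class with exact 95% intervals) for 78 switched and 269 IGHM or IGHD clonotypes, for the 11 families with at least 10 clonotypes over both classes. The points of IGKV13 and IGKV3 lie furthest right in the switched class relative to IGHM or IGHD.

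Few genes made up these differences. Of 28 genes compared, the largest gain in share was in IGKV13-85, used by 9 switched and 6 IGHM or IGHD clonotypes (11.5% and 2.23%, odds ratio 5.68, 1.74 to 20.1). IGKV3-4 followed with 8 and 11 clonotypes (2.67, 0.896 to 7.62). IGKV3-10 (chr6:70572633-70573230, plus strand) had 5 and 1 clonotypes (18.2, 1.99 to 871), and IGKV3-12 (chr6:70518250-70518849, plus strand) had 4 and 3 (4.76, 0.787 to 33.3). The intervals of IGKV3-4 and IGKV3-12 included 1.

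The largest losses in share were in IGKV6-15, with 0 switched and 12 IGHM or IGHD clonotypes (upper bound of the odds ratio 1.22), and IGKV1-117, with 1 and 15 (0.221, 0.00516 to 1.48). IGKV8-24 had 0 and 8, and IGKV12-46, IGKV19-93 and IGKV6-17 had 0 and 7 each. All of these intervals included 1. Switched clonotypes used 36 V genes and IGHM or IGHD clonotypes 64, with 33 in both. Per clonotype, the interval of every J gene odds ratio included 1: IGKJ1 had 28.2% of switched and 37.5% of IGHM or IGHD clonotypes (odds ratio 0.654, 0.358 to 1.17), and IGKJ5 had 23.1% and 17.5% (1.42, 0.719 to 2.70). Counted per cell, IGKJ1 had an odds ratio of 0.512 (0.291 to 0.880), and without cells of at least 20 Jchain UMIs IGKJ5 had 3.80 (1.23 to 11.4), both of which excluded 1. Cells of 1 clonotype mostly share their kappa joint, so an interval counted per cell is too narrow.

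Switched clonotypes used the J-distal V genes in 21.8% (13.2 to 32.6), against 36.1% (30.3 to 42.1) of IGHM or IGHD clonotypes. The middle group, which holds IGKV13, had 35.9% of switched and 27.9% of IGHM or IGHD clonotypes. The J-proximal group, which holds IGKV3, had 42.3% and 36.1%. In each group the intervals of the classes overlapped.

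Pairing of kappa and heavy chains was read in the 361 clonotypes with both. Of 180 possible pairs of families, 98 were found and 44 of those in 1 clonotype. The most frequent pair, IGKV6 with IGHV1, had 24 clonotypes, and the product of the 2 families' shares gives 22.9. IGKV3 with IGHV1 had 23 (product 25.6), IGKV1 with IGHV1 had 20 (18.4), IGKV4 with IGHV1 had 20 (24.7) and IGKV10 with IGHV1 had 10 (12.1). Of the 8 most frequent pairs, these 5 lay on both sides of the product, and the other 3 lay above it. The 2 sets were not apart in size of difference. Observed minus product was -4.68 for IGKV4 with IGHV1 and 4.79 for IGKV3 with IGHV9, 1 of the other 3.

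The 3 pairs furthest above the product were IGKV4 with IGHV5, in 13 clonotypes (product 6.25), IGKV13 with IGHV1, in 14 (8.53), and IGKV3 with IGHV9, in 10 (5.21). Furthest below were IGKV4 with IGHV1, IGKV3 with IGHV2, in 2 (6.63), and IGKV12 with IGHV1, in 7 (10.8). Of the first 3, IGKV13 with IGHV1 had 10 switched and 4 IGHM or IGHD clonotypes, IGKV3 with IGHV9 had 9 and 1, and IGKV4 with IGHV5 had 5 and 8.

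**Figure D5:**
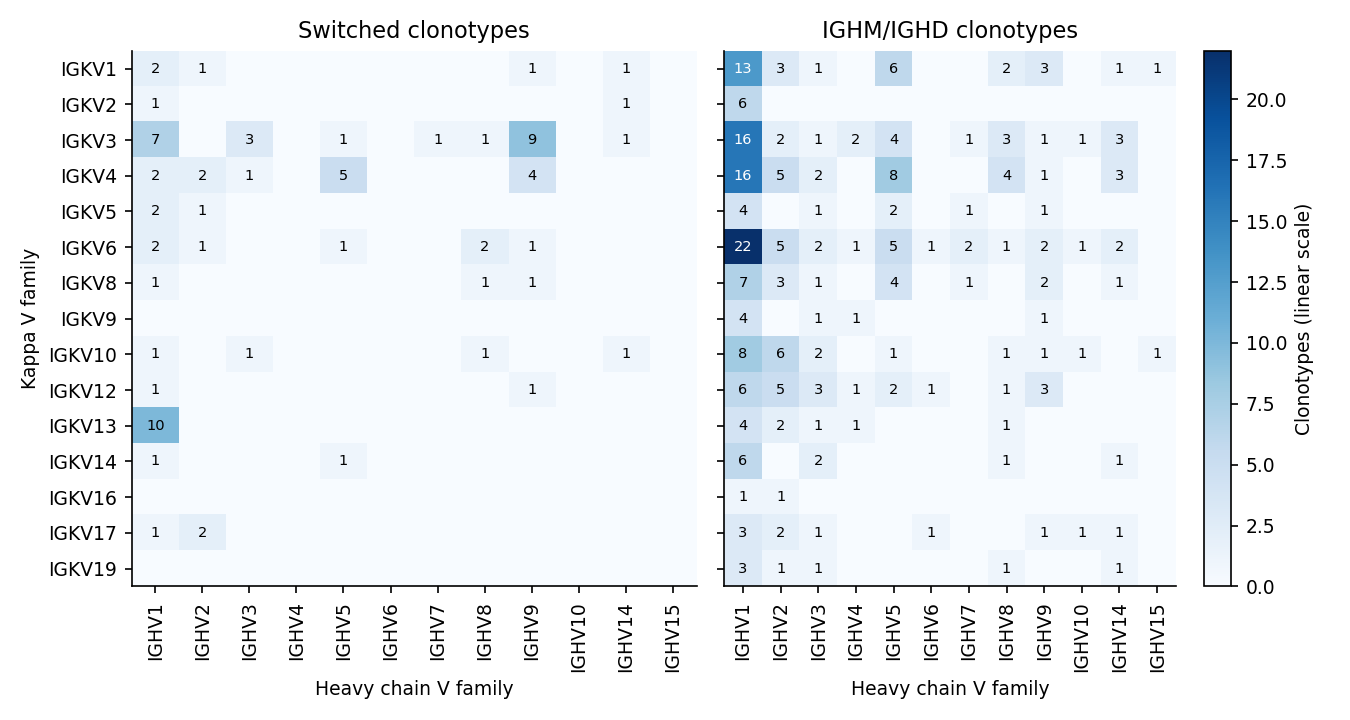
Clonotypes per pair of kappa V family (rows) and heavy chain V family (columns), in switched clonotypes (left) and IGHM or IGHD clonotypes (right) on 1 linear colour scale. IGKV13 with IGHV1 (10) and IGKV3 with IGHV9 (9) are the most frequent pairs on the left, and IGKV6 with IGHV1 (22) on the right.

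The following 2 pairings were looked at because of these counts, so their values are a description. All 10 IGKV3 with IGHV9 clonotypes used IGHV9-3. Of 11 switched IGHV9-3 clonotypes, 9 had an IGKV3 gene, and of 11 IGHM or IGHD ones 1 did. The 9 held 17 cells and were all IGHG1, with IGKV3-10 in 5, IGKV3-12 in 2 and IGKV3-5 in 2. Without clonotypes in which a cell had a second kappa contig, 8 switched and 1 IGHM or IGHD clonotypes remained. The heavy CDR3s of the 9 had 10 to 14 residues between the anchors and differed from each other. With other heavy chain families, IGKV3 had 14 switched and 33 IGHM or IGHD clonotypes, an odds ratio of 1.56 (0.727 to 3.22).

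IGKV13-85 with IGHV1 had 9 switched and 3 IGHM or IGHD clonotypes. In 6 of the 9 the heavy CDR3 had 8 residues between the anchors, a length found in 17 of 361 clonotypes with a heavy chain (4.71%, 2.77 to 7.43) and in 7 of the 78 switched ones. All 5 with the IGKJ2 joint printed above had this length. In the 6 IGHM or IGHD clonotypes with IGKV13-85, heavy CDR3s had 9 to 18 residues, with a median of 13.5.

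Pairs known from B-1 cells, the innate-like B cells of body cavities, were not found. IGKV14-126 with IGHV11-2 and IGKV4-91 with IGHV12-3 had 0 of 361 clonotypes each, which allows a share of up to 0.831% at 3 counts (exact upper bound 1.02%). The heavy chain genes IGHV11-2 and IGHV12-3 were themselves in 0 of the 361 clonotypes, so neither pair could be seen whatever the kappa gene. IGKV14-126 was present in 3 clonotypes and IGKV4-91 in 1, with other heavy chains.

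A second kappa contig was found in 20 of 580 cells (3.45%, 2.12 to 5.28), and it held 11.6% to 50% of the cell's kappa UMIs, with a median of 41.1%. Of these cells 7 were switched and 12 IGHM or IGHD. The same pair of joints, IGKV3-10 with IGKJ2 and IGKV1-135 with IGKJ1, was found in 3 switched cells of 1 clonotype, and IGKV3-7 with IGKJ2 beside IGKV1-133 with IGKJ1 in 2 cells of another. The other 15 cells each had a pair of their own. A cell can carry 2 productive kappa joints, and 2 cells under 1 barcode give the same picture, which was not tested for those 15. No cell had both a kappa and a lambda contig. The recombination genes Rag1 and Rag2 had a UMI in 0 of the 580 cells.

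The expression library gave a second reading of the V gene, from the same amplified cDNA. Among 554 member cells with at least 3 Igkv UMIs, the V gene with most UMIs was that of the contig in 550 (99.3%, 98.2 to 99.8). It matched in 95 of 96 switched and 258 of 261 IGHM or IGHD cells.

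The same reading let the control library be set beside the anti-CTLA-4 one. A control B cell receptor library was not analysed here. B-lineage barcodes, those with at least 2 UMIs over Cd79a, Cd79b, Ms4a1 and Jchain, numbered 787 in the anti-CTLA-4 library and 77 in the control. A V gene could be assigned in 569 and 49 of them. IGKV4 had 18.3% of assigned anti-CTLA-4 cells (15.2 to 21.7) and 14.3% of control cells (5.94 to 27.2), IGKV3 had 14.8% and 12.2%, and IGKV6 had 12.5% (9.88 to 15.5) and 24.5% (13.3 to 38.9). The intervals of each of these 3 families overlapped between the libraries. In cells with at least 10 Igkv UMIs they did not for IGKV6, which had 14.7% of 415 anti-CTLA-4 cells (11.4 to 18.5) and 37.0% of 27 control cells (19.4 to 57.6). The IGKV4 cells of the anti-CTLA-4 library include cells of the excluded clonotype.

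Kappa V transcripts took a larger share of the UMIs in the anti-CTLA-4 B-lineage barcodes. Igkv genes had 8.84% of all UMIs there and 0.276% in the control, a ratio of 32.0 (29.9 to 34.3). Jchain is also among the genes of the B-lineage rule. On Cd79a, Cd79b and Ms4a1 alone, 735 of the 787 anti-CTLA-4 barcodes and all 77 control barcodes had at least 2 UMIs. Barcodes that needed Jchain to enter were thus all from the anti-CTLA-4 library. The number of barcodes, the ratio above, the Jchain count and the counts per gene below can in part come from this rule. At least 20 Jchain UMIs were found in 90 anti-CTLA-4 barcodes and 0 control barcodes. Without those 90, Igkv genes had 0.478% of UMIs in the anti-CTLA-4 and 0.276% in the control library, a ratio of 1.73 (1.61 to 1.86). Both ratio intervals treat pooled UMIs as independent counts, so they leave out the spread between cells and are too narrow.

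Of 160 Igkv genes in the table, 75 had at least 20 UMIs over both libraries. At least 2-fold higher in the anti-CTLA-4 library were 48 of the 75, where 10.9% of all 9295 genes tested were, and at least 2-fold lower were 8, where 15.6% of all genes were. The median log2 ratio was 2.09 for the 75 Igkv genes and -0.20 for all genes. Here 30 Igkv genes had 0 control UMIs and were set to 3, the limit that a count of 0 allows; with 0.5 UMIs added to each sum instead, the medians were 3.45 and -0.23. Without barcodes of 20 or more Jchain UMIs, 33 of 68 Igkv genes were at least 2-fold higher (17.5% of all genes) and 6 at least 2-fold lower (10.9% of all genes). The anti-CTLA-4 sums were deeper (4776260 UMIs, against 312460 in the control), so a gene high there passed the minimum of 20 UMIs more easily, and these counts describe the 2 libraries only.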

How the data were processed

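Receptor and expression libraries were made with a 5′ droplet kit, loaded for a target of 5000 cells, per the labels. The submitters' processing notes name Cell Ranger 5.0.0 and the builds mm10 and GRCm38, and which V(D)J reference was used is not given in the sources used here. Counts are deposited as raw UMI counts, 1 value for each gene in each barcode, and for each contig beside its clonotype and V, J and constant gene calls, which are those of the authors. The B cell receptor file held 1151 contigs (667 kappa, 473 heavy, 11 lambda) of 667 cells. The expression files held 4186 anti-CTLA-4 and 5649 control barcodes, with 19989467 and 86478313 UMIs. They shared 20 barcodes, and 2 member barcodes also occurred in the control library.

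A clonotype took the V, J and CDR3 of most of its cells (4 clonotypes had cells that disagreed on V) and was switched if any cell was. Expression barcodes needed 200 genes and at most 15% mitochondrial UMIs; 576 of the 580 member cells passed. No doublet caller was run. The B-lineage rule was planned with 1 more marker gene, which is not reported here and was left out of every sum. A cell was assigned an Igkv gene from at least 3 Igkv UMIs, 80% of them from that gene. Igkv positions and germline bases came from GENCODE M21 on GRCm38. Exact 95% intervals and conditional odds ratios were computed with scipy 1.17.1, pandas 2.3.3 and numpy 2.4.6 in Python 3.11.15, tested on simulated data.

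Members, lists and alternatives were chosen with earlier results of these data known. Named genes were every family, the 12 V genes with most clonotypes, the 4 with the largest gain and the 4 with the largest loss in switched share among genes with at least 6 clonotypes over both classes (6 where tied), the 8 most frequent family pairs, the 3 furthest above and below the product of margins, and up to 10 shared joints. IGKV3-10 and IGKV3-5 with IGHV9-3, the IGKV13-85 with IGHV1 heavy chains, and the J use of IGKV6-17 and IGKV6-15 were singled out after their values were seen.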

Additional observations from a re-analysis of the deposited data

Results flagged for a closer look

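The clonotype excluded for its size gave a signal in data outside the comparisons above. A T cell receptor beta contig was found in 37 of its 68 barcodes (54.4%, exact 95% interval 41.9 to 66.6), against 14 of the 580 member cells (2.41%, 1.33 to 4.02). Its heavy chain was read as IGHG1 in 62 cells, its kappa chain had a median of 6 UMIs, and Jchain had a median of 1 UMI. No member cell had its kappa CDR3, and 6 member cells used the same V gene, IGKV4-68, with other joints. The source of this receptor in those barcodes was not tested.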

How the results depend on the processing

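Over 20 settings, 555 alternative values were computed for 55 results. Of these, 540 kept their place: shares stayed within the interval first given and odds ratios kept their side of 1 in their interval. That count includes settings that could change little or nothing. Merging lineages merged none, and keeping the excluded clonotype added only that clonotype. Counting only IgG as switched gave the same values as leaving the clonotype of both classes without a class. No interval that excluded 1 moved to the other side of 1, while 14 odds ratios whose interval included 1 first did have their value on the other side. When each distinct kappa joint was counted once, IGKV10-96 had 2.46% in place of 5.63%, and the odds ratios of IGKV13 in switched clonotypes (3.03) and of J-proximal IGKJ4 (1.34) had intervals that included 1. When cells were counted, the odds ratio of IGKJ4 was 1.84 with an interval that included 1. That of IGKV6 in switched cells was 0.387 (0.142 to 0.907), which excluded 1, as did those of IGKV12 (0.230) and IGKJ1 (0.512). Per clonotype the intervals of IGKV6, IGKV12 and IGKJ1 included 1. Cells of 1 clonotype are not independent, so the intervals counted per cell are too narrow. Without cells of at least 20 Jchain UMIs, a setting chosen after seeing the data, 18 switched clonotypes remained. IGKV3 then had 2.01 and IGKV13 had 5.64, while IGKV6 had 1.01 (0.180 to 3.79) in place of 0.505. IGKJ5 had 3.80 (1.23 to 11.4), which excluded 1. The cause was not tested. The merging of lineages and the limit to cells with B cell markers or Jchain were also chosen after seeing the data. With at least 10 Igkv UMIs per cell, IGKV4 had 11.3% of assigned anti-CTLA-4 cells and 0 of 27 control cells, and IGKV6 had 14.7% and 37.0%. No paired analysis was possible because each group is 1 library, and no replicate could be left out. The 78 switched clonotypes limit the isotype comparison, and the 49 assigned control cells limit the comparison between treatments.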
